A study of Mus musculus with 25 samples.

Results

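Tumors that arose in mice given a carcinogen and a western diet (DEN T-WD, n = 6) were compared with the liver of mice that received the same diet and no carcinogen (nonDEN L-WD, n = 4). Samples entered by their group labels and not by measured values, and they make up 10 of the 25 RNA libraries of the series. All mice were male C57BL/6J, an inbred laboratory strain. Diethylnitrosamine (DEN), a carcinogen that hepatocytes activate, was injected into the peritoneum at 25 mg/kg when the mice were 2 weeks old. The nonDEN L-WD mice were left untreated, and both groups ate the western diet from weaning until tissue was taken at 36 to 39 weeks of age. The labels do not say whether the 6 tumors came from separate mice, so that p-values measure the spread between these samples. DEN, tumor tissue and any difference in age cannot be told apart in this comparison, because the series holds no tumor sample from untreated mice.

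Hepatocytes make most plasma proteins, clear ammonia and drugs, and divide this work along the lobule, with urea synthesis near the portal vein and glutamine synthesis and many cytochromes P450 near the central vein. In male mice the pulses of growth hormone, acting through STAT5, also keep up the major urinary proteins. Hepatocellular tumors are known to bring back fetal liver genes, to divide, and to recruit blood vessels, fibrous tissue and macrophages. Whole tissue was measured here, so that fewer cells of a type and less RNA per cell cannot be told apart.

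Total expected counts per library were 28520935 to 31120744 in nonDEN L-WD and 21530083 to 31410005 in DEN T-WD. All values below without another unit are normalized counts, which are expected counts scaled to a common library size. Fold changes are given as log2 with their standard error (SE), tumor relative to untreated liver, and a gene was called at an adjusted p of at most 0.05 with a change of at least 2-fold. Of 8 hepatocyte markers, 1 was called higher (*Apoa1*), 2 were called lower (*Cps1* and *Fabp1*) and the other 5, *Alb* and *Hnf4a* among them, were not called. Summed hepatocyte markers stood at 2025699 to 3240097 in the livers, at 3216160 to 4289225 in 5 tumors and at 1074856 in DEN T-WD 5. A liver library and a tumor library stood apart and are described first.

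The library labelled nonDEN L-WD 1 held transcripts that are known from the kidney. *Kap*, an androgen-regulated protein of the kidney tubule, stood at 14869 in this library and at 1.05 or less in the other 3 livers. *Umod*, which encodes uromodulin, stood at 2197 there and at 2.04 or less in the others. Over 10 kidney genes, chosen after their values were seen, the sum was 22041 in nonDEN L-WD 1, 5.10 to 10.5 in the other nonDEN L-WD livers, and 8.3 at most in a tumor. Of the 818 genes called lower in tumors, 22 stood at least 4-fold higher in nonDEN L-WD 1 than in each other liver of the group, and 20 of the 22 were not called lower once this library was left out. *Lrp2*, which encodes megalin, a receptor of the kidney tubule, had the largest fall of the rule-based list, with 3291, 93.5, 54.0 and 101 in the livers and 11.1 to 41.7 with a median of 23.7 in tumors. Its log2 fold change moved from -5.11 ± 0.87 to -1.71 ± 0.47 without that library (edgeR adjusted p = 0.0058). *Egf* moved in the same way from -4.61 ± 0.86 to -0.56 ± 0.39 (edgeR adjusted p = 0.246), and *Ldhb* from -1.84 ± 0.46 to -0.30 ± 0.26 (edgeR adjusted p = 0.369).

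Among the tumors, the library labelled DEN T-WD 5 stood apart. Of 10771 genes with at least 100 normalized counts in either group, 62 were at least 4-fold above and 96 at least 4-fold below every other tumor, against 0 to 30 above and 1 to 4 below for the others. Albumin took 2.89% of all counts in this tumor, 10.2% to 12.3% in the other 5 and 4.76% to 6.81% in nonDEN L-WD. Mitochondrial transcripts took 10.5% in DEN T-WD 5, 4.81% to 6.06% in the other tumors and 9.17% to 9.86% in the livers. *Gm42418*, a transcript whose sequence overlaps ribosomal RNA, took 5.74% of its counts, and 0.798% to 4.32% in the other tumors. Where a gene's call or a list's count turned on either library, the value without it is given beside it.

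**Figure D1:**
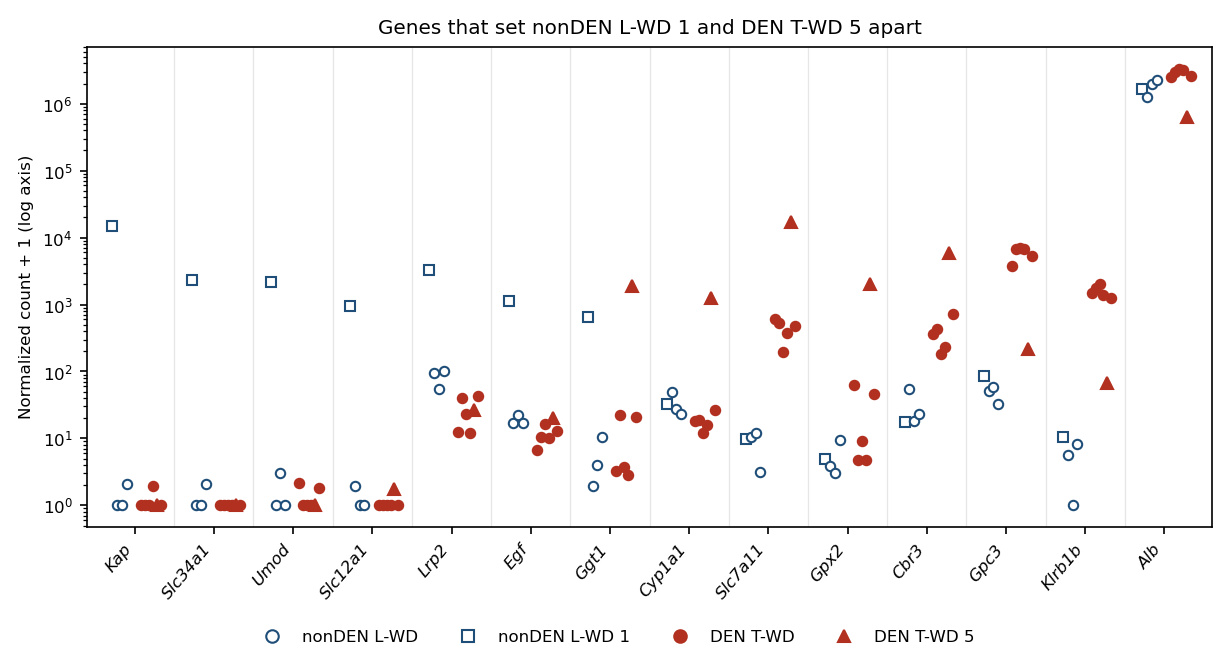
Normalized counts plus 1 (log axis) of genes that set 2 libraries apart, with 1 point per library for nonDEN L-WD (4 points, replicate 1 as a square) and DEN T-WD (6 points, replicate 5 as a triangle). The kidney genes on the left are high in nonDEN L-WD 1 alone, and the genes on the right show DEN T-WD 5 outside the range of the other 5 tumors.

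The tumors differed from untreated western-diet liver in 2447 of 15625 tested genes (15.7%), with 1629 higher (10.4%) and 818 lower (5.24%). Large changes were mostly increases, since 299 genes rose and 69 fell by at least 8-fold. The groups did not overlap in any library for 1195 of the genes called higher and 601 of those called lower, or 7.65% and 3.85% of tested genes. Whatever the call, 31.3% of tested genes did not overlap, and 49.0% passed the adjusted p alone. The median log2 fold change of all tested genes was 0.02. Without DEN T-WD 5 there were 1474 genes called higher (9.50%) and 879 lower (5.67%), and without nonDEN L-WD 1 there were 1593 (10.2%) and 719 (4.62%).

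**Figure D2:**
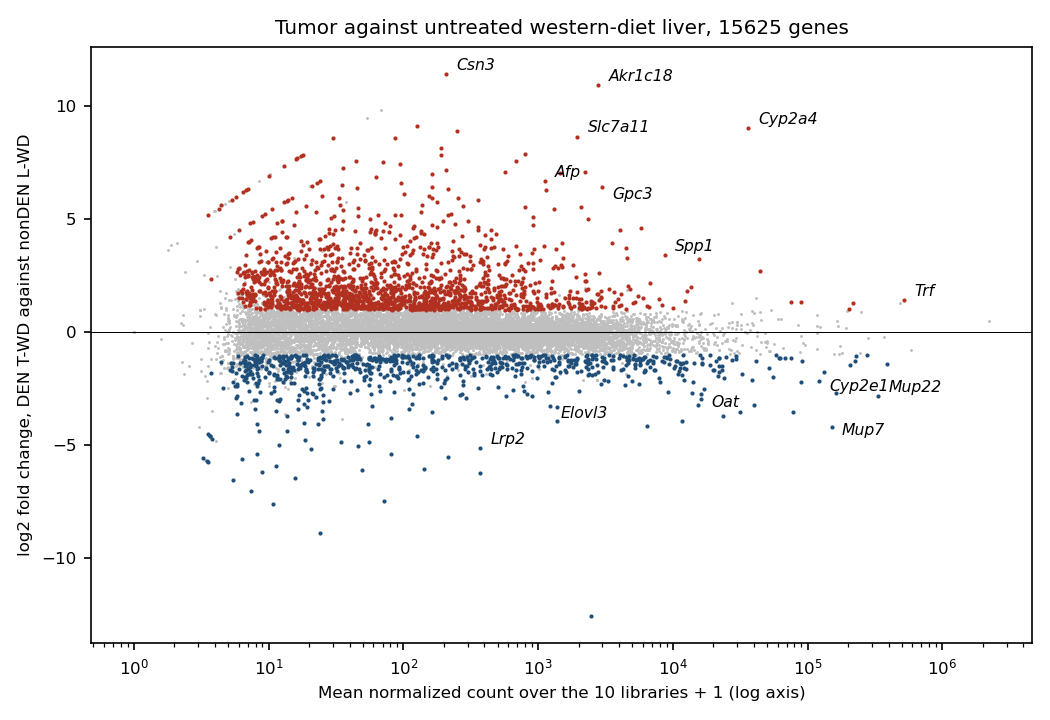
Log2 fold change of tumor against untreated western-diet liver (y axis) by mean normalized count over the 10 libraries (x axis, log) for the 15625 tested genes, with the 1629 genes called higher in red and the 818 called lower in blue. Genes such as *Akr1c18* and *Cyp2a4* at the top and the major urinary protein genes at the bottom right reach further than the bulk of genes, whose median is 0.02.

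The largest rises were in genes that untreated liver hardly transcribed. They were ranked only among called genes without overlap between the groups, so that their lack of overlap was set by that rule. *Csn3*, the milk protein kappa-casein (chr5:87925579-87932665, GRCm38), had no count in any nonDEN L-WD liver and stood at 24.1 at the lowest, 199.8 at the median and 762 at the highest among the tumors. All 6 tumors were above the floor of 3 counts, and their mean was at least 114-fold higher than the livers (edgeR adjusted p = 0.00188). *Akr1c18*, an aldo-keto reductase that inactivates progesterone (chr13:4132615-4150654), stood at 1.93, 0, 5.09 and 2.11 in the livers and at 268 at the lowest, 4843 at the median and 7279 at the highest in the tumors. Every tumor exceeded every liver, with a log2 fold change of 10.95 ± 1.42 (edgeR adjusted p = 1.9e-06), and DEN T-WD 5 was the lowest tumor. *Cyp2a4*, a steroid 15-alpha-hydroxylase known to be female-biased in liver (chr7:26307169-26315088), stood at 416, 32.7, 8.15 and 0 in the livers. It reached 49770 to 73716 with a median of 60247 in tumors and rose by 9.03 ± 1.25 (edgeR adjusted p = 4.15e-06), although 38.8% of its sequence is held by other genes, chiefly *Cyp2a5*. The liver at 416 is nonDEN L-WD 1, the library with kidney transcripts, and over 17 alternative fits the rise was 8.62 to 12.05. On the TPM scale, which corrects for gene length, *Cyp2a4* went from 3.52 ± 6.17 to 2272 ± 447 (SD). The rest of the 12 largest rises were *Cacna1b*, a neuronal calcium channel subunit, *Cdh17*, a cadherin of the gut, *Slc7a11*, *Tekt5*, *Vmn2r3*, *Klrb1b*, *Cyp2b13*, *Kif5c* and *Sult2a2*. *Tekt5* stood at 3.66 to 24.4 in 5 tumors and 768 in DEN T-WD 5, and its log2 fold change of 8.59 ± 2.11 became 5.49 ± 1.49 without that tumor. DEN T-WD 5 was the lowest tumor for 9 of these 12 genes and the highest for the other 3.

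Some of the genes that rose are known to be higher in female than in male mouse liver, and they were picked here from the measured changes and not from a list of such genes. *Cyp2b9* stood at 7.71, 60.8, 30.6 and 7.37 in the livers and 112 at the lowest, 4130 at the median and 6148 at the highest in the tumors. The lowest tumor was DEN T-WD 5, the groups did not overlap, and the rise was 7.09 ± 0.99 (edgeR adjusted p = 4.53e-06). *Cyp2b13* was at the floor of 3 counts or less in each liver and stood at 8.02 to 639 with a median of 291 in tumors, with the tumor mean at least 105-fold higher. *Sult2a2*, a sulfotransferase of steroids and bile acids, was also at the floor in liver and at 5.10 to 172 with a median of 128 in tumors, with 62.1% of its sequence shared. *Cyp2b10*, a relative that the receptor CAR is known to induce, went the other way. Its values were 25.1, 11.2, 57.1 and 22.1 in the livers and 7.87 to 13.2 with a median of 10.1 in tumors, with a log2 fold change of -1.48 ± 0.61 and overlap (edgeR adjusted p = 0.0465, or 0.0742 without DEN T-WD 5), and the call was lost in 10 of 17 alternative fits.

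Fetal liver and imprinted genes were called higher in 10 of 15 tested members, against 10.4% of all tested genes, and their median log2 fold change was 1.57 against 0.02 over all genes. *Afp*, which encodes the fetal serum protein alpha-fetoprotein (chr5:90490737-90508907), stood at 21.2, 15.9, 16.3 and 17.9 in the livers and at 1084 at the lowest, 1792 at the median and 2583 at the highest in tumors. No tumor came near the livers, and the log2 fold change was 6.69 ± 0.80, or 103-fold (edgeR adjusted p = 6.56e-07). *H19*, an imprinted noncoding RNA of fetal liver, stood at 50.1, 55.2, 68.3 and 18.96 and at 546 at the lowest, 2364 at the median and 3755 at the highest, a rise of 5.47 ± 0.70 without overlap (edgeR adjusted p = 1.49e-06). *Igf2bp3*, an RNA-binding protein of fetal tissues, had no count in any liver and 8.24 to 60.5 with a median of 19.5 in tumors, with the tumor mean at least 8.34-fold higher. *Gpc3*, a cell surface proteoglycan used as a marker of hepatocellular carcinoma, separated the tumors themselves. It stood at 83.9, 50.5, 58.1 and 31.6 in the livers, at 3699 to 6871 in 5 tumors and at 219 in DEN T-WD 5. That tumor still lay above every liver, and the rise was 6.45 ± 1.01 with it and 6.70 ± 0.86 without it (edgeR adjusted p = 1.44e-06). *Grb10*, which encodes an adaptor of insulin and growth factor receptors, rose by 2.20 ± 0.28, and *Igf2*, the fetal growth factor, by 1.57 ± 0.42 (edgeR adjusted p = 1.71e-06 and 0.00326).

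**Figure D3:**
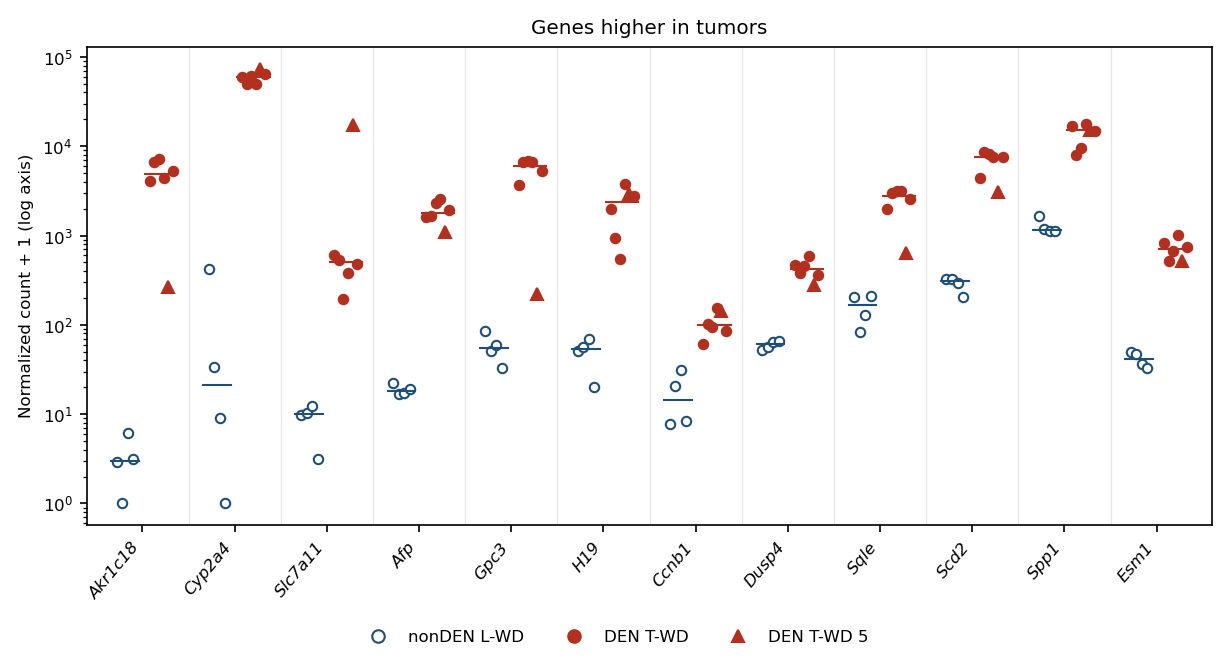
Normalized counts plus 1 (log axis) of 12 genes that were higher in tumors, with 1 point per library for nonDEN L-WD (4, open) and DEN T-WD (6, filled, replicate 5 as a triangle) and a bar at each group's median. Every tumor lies above every liver for the genes shown, while DEN T-WD 5 is the lowest tumor for *Akr1c18*, *Afp* and *Gpc3* and the highest for *Slc7a11*. For *Akr1c18*, *Cyp2a4* and *Slc7a11* the lack of overlap was required by the rule that picked them.

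Of 28 tested genes of mitosis, 23 were called higher, against 10.4% of all tested genes, with a median log2 fold change of 1.77, and the other 5 were not called, 1 of them with a rise that passed the adjusted p but not the 2-fold minimum. *Ccnb1* and *Ccnb2* encode the B-type cyclins that drive entry into mitosis. *Ccnb1* stood at 6.75, 19.6, 30.6 and 7.37 in the livers and at 60.5 at the lowest, 98.1 at the median and 153 at the highest in the tumors, without overlap, and rose by 2.72 ± 0.43 (edgeR adjusted p = 1.96e-05). *Ccnb2* stood at 12.5, 15.9, 24.5 and 9.48 and at 58.2 at the lowest, 82.5 at the median and 120.0 at the highest, again without overlap, and rose by 2.49 ± 0.36 (edgeR adjusted p = 8.15e-06). *Mki67*, the antigen of proliferating cells, stood at 111, 155, 188 and 84.3 in the livers and 289.9 to 741 with a median of 578 in tumors, with a rise of 2.06 ± 0.38 (edgeR adjusted p = 0.000103). *Ccne1*, the cyclin of entry into S phase, rose by 2.48 ± 0.34 (edgeR adjusted p = 3.34e-06). In TPM these were low levels, at 0.530 ± 0.233 for *Ccnb2* in liver and 3.77 ± 1.06 in tumors (SD). Leaving out DEN T-WD 5 kept the count at 23 higher.

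Promoters of mitotic genes are known to carry the element CHR, written here as TTTGAA or TTCGAA, and CCAAT boxes. Of the 23 mitotic genes called higher, 17 matched a RefSeq promoter (GRCm38.p6, 250 bases before to 50 after the start site). CHR letters were in 12 of these 17 (70.6%) on either strand, against 19.4% of 27025 promoters, and CCAAT was in 14 of 17 (82.4%) against 37.9%. A match describes letters only. The 250 bases before the start of both B-type cyclins are shown because the pair rose together, with CHR and CCAAT in capitals.
Ccnb1, chr13:100786487-100786736, minus strand: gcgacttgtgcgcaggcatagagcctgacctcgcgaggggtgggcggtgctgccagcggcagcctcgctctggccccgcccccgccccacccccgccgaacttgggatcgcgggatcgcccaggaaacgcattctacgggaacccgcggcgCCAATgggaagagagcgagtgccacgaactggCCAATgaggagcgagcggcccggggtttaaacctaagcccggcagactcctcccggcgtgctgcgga
Ccnb2, chr9:70421555-70421804, minus strand: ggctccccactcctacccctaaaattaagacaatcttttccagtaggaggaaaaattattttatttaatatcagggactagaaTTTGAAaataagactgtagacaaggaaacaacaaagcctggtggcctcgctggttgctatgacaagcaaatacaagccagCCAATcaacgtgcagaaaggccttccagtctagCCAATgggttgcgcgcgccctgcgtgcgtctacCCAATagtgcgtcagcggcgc
*Ccnb1* holds CCAAT 99 and 67 bases before the start and no CHR letters, and *Ccnb2* holds TTTGAA at 167 bases and CCAAT at 87, 54 and 21 bases before it.

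Of 20 licensing and replication genes, 3 were called higher and 1 lower, with a median of 0.44, and these shares are near the 10.4% and 5.24% of all tested genes. Without nonDEN L-WD 3, 5 were called higher. *Mcm6*, a subunit of the replicative helicase, stood at 125, 129, 201 and 123 in the livers and 272 to 530.0 with a median of 313 in tumors and rose by 1.24 ± 0.23 (edgeR adjusted p = 0.000131). *Mcm10* was the member called lower, from 1990, 2450, 2078 and 3213 to 546 to 736 with a median of 591, a change of -2.0 ± 0.19 (edgeR adjusted p = 3.88e-08). Of 19 targets of p53 and DNA damage genes, 8 were called higher. *Cdkn1a*, the p21 inhibitor of cyclin-dependent kinases, stood at 94.5, 102, 160.0 and 172 in the livers and at 467 at the lowest, 784 at the median and 956 at the highest in tumors. All tumors were higher, by 2.52 ± 0.45 (edgeR adjusted p = 8.95e-05). *Phlda3*, an inhibitor of AKT, rose by 2.72 ± 0.35, and *Eda2r*, a receptor of the TNF family, by 1.70 ± 0.37 (edgeR adjusted p = 1.62e-06 and 0.00055).

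Feedback genes of MAPK signalling and EGF receptor ligands were called higher in 10 of 22 members, against 10.4% of all tested genes, with a median of 0.81. The 1 member called lower was *Egf*, itself a ligand of this receptor, which lost its call without nonDEN L-WD 1. *Dusp4*, a phosphatase that ERK signalling induces and that inactivates ERK, stood at 51.1, 56.1, 63.2 and 64.2 in the livers and at 278 at the lowest, 416 at the median and 583 at the highest in tumors. It rose by 2.84 ± 0.25 in the absence of overlap (edgeR adjusted p = 1.48e-08). *Dusp5* stood at 25.1, 51.4, 55.0 and 22.1 in the livers, at 325 to 585 in 5 tumors and at 80.9 in DEN T-WD 5, a rise of 3.39 ± 0.54 (edgeR adjusted p = 2.34e-05). *Etv4*, a transcription factor downstream of ERK, showed the same order, with 2.89, 2.81, 4.08 and 2.11 in the livers, 34.0 to 68.7 in 5 tumors and 4.37 in DEN T-WD 5. *Areg*, *Btc* and *Hbegf* encode ligands of the EGF receptor. They rose by 3.74 ± 0.60, 1.93 ± 0.25 and 1.99 ± 0.30 (edgeR adjusted p = 2.44e-05, 1.71e-06 and 1.38e-05), and DEN T-WD 5 was the lowest tumor for each. *Ccnd1*, cyclin D1, stood at 1475, 1090, 1341 and 1326 in the livers and 1610 to 4955 with a median of 3659 in tumors, with a rise of 1.34 ± 0.31 (edgeR adjusted p = 0.00107).

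Genes that growth hormone is known to keep high in males were among those called lower. Of 24 members of the growth hormone and STAT5 list, 11 were called lower and 3 higher, with a median of -0.83, against 5.24% lower and 10.4% higher among all tested genes. Without DEN T-WD 4, 1 was called higher. Major urinary proteins, lipocalins that bind pheromones, took 5.99% to 11.8% of all counts in the livers and 0.993% to 2.26% in the tumors. *Mup7* (chr4:60066469-60070475) stood at 353062, 149174, 174208 and 716020 in the livers and at 2100 at the lowest, 11457 at the median and 43626 at the highest in tumors, a change of -4.20 ± 0.80 (edgeR adjusted p = 0.000159), with 86.7% of its sequence shared. Single *Mup* genes are uncertain for that reason, and 9 of the 12 largest falls were *Mup* genes or a *Mup* pseudogene. *Mup22* had the highest TPM of the genes called lower, at 42344 ± 3790 in liver and 7775 ± 2822 in tumors (SD). *Mup20*, which encodes the pheromone darcin, fell by less, with -1.27 ± 0.24 (edgeR adjusted p = 0.000157).

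*Hsd3b5*, a male-biased steroid reductase, stood at 2761, 2264, 1470 and 5518 in the livers and at 24.0 at the lowest, 212 at the median and 736 at the highest in tumors. Its change was -3.31 ± 0.77 (edgeR adjusted p = 0.00121). Each tumor was below each liver, which the rule for the largest falls required of this gene and of *Elovl3*. *Elovl3*, an elongase of very long fatty acids, stood at 2453, 1891, 3292 and 3035 and at 183 to 426 with a median of 258, a fall without overlap and with little spread, of -3.26 ± 0.25 (edgeR adjusted p = 2.55e-09). *Ghr*, the growth hormone receptor, stood at 16522, 17138, 16385 and 16137 in the livers and 5861 to 7610 with a median of 6702 in tumors and fell by 1.29 ± 0.08 (edgeR adjusted p = 4.93e-10). *Igf1*, its main hepatic target, changed by -1.36 ± 0.16 (edgeR adjusted p = 6.25e-07), and *Nudt7*, a peroxisomal hydrolase of coenzyme A, by -2.21 ± 0.13 (edgeR adjusted p = 1.76e-10). *Slco1a1*, an organic anion transporter, changed by -2.65 ± 0.43 (edgeR adjusted p = 3.1e-05). *Igfbp1*, an IGF-binding protein, went the other way, from 1890, 1195, 2929 and 4110 in the livers to 1760 to 42853 with a median of 24953 in tumors, a change of 3.26 ± 0.61 (edgeR adjusted p = 0.000128).

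**Figure D4:**
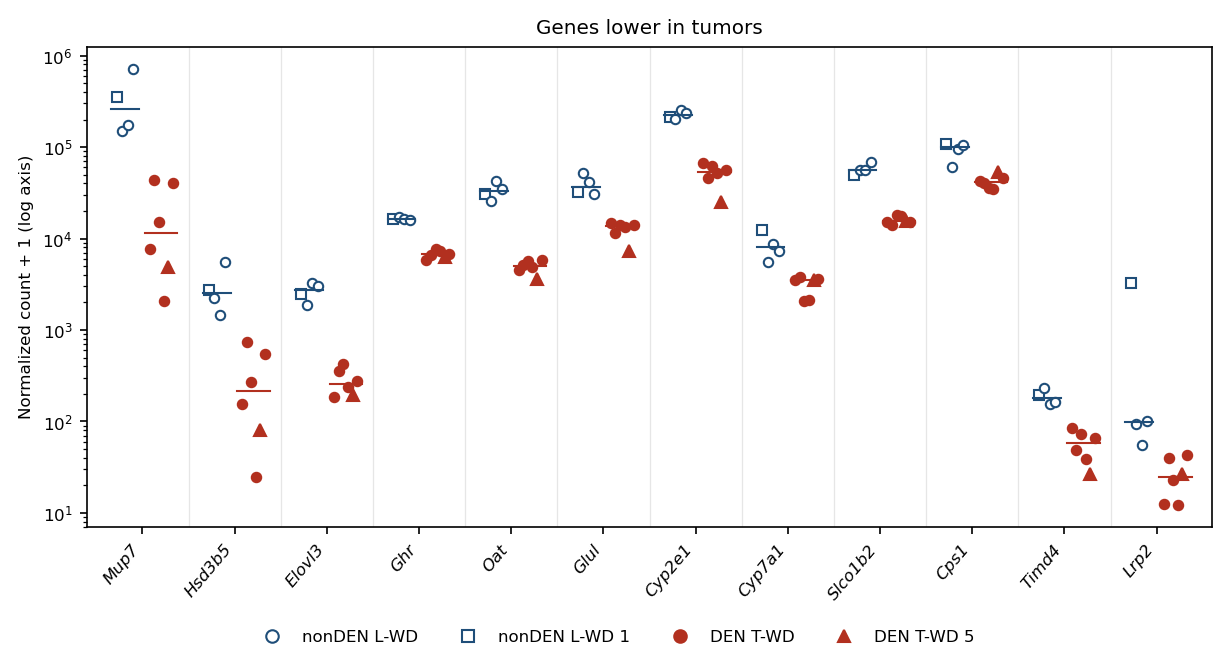
Normalized counts plus 1 (log axis) of 12 genes that were lower in tumors, with 1 point per library for nonDEN L-WD (4, open, replicate 1 as a square) and DEN T-WD (6, filled, replicate 5 as a triangle) and a bar at each group's median. Every tumor lies below every liver for each gene shown, and *Lrp2* differs from the rest in that nonDEN L-WD 1 is far above the other 3 livers. For *Mup7*, *Hsd3b5*, *Elovl3* and *Lrp2* the lack of overlap was required by the rule that picked them.

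Of 24 pericentral genes, 18 were called lower and 1 higher, against 5.24% and 10.4% of all tested genes, with a median of -1.31. *Oat*, ornithine aminotransferase (chr7:132557478-132576398), stood at 30722, 25479, 42186 and 34722 in the livers and at 3588 at the lowest, 5019 at the median and 5813 at the highest in tumors. The highest tumor was far below the lowest liver, with -2.75 ± 0.18 (edgeR adjusted p = 5.21e-10). *Slc1a2*, a glutamate transporter, stood at 9080, 8800, 9487 and 9542 and 1207 to 2618 with a median of 2240, and fell by 2.15 ± 0.15 (edgeR adjusted p = 1.12e-09). *Glul*, glutamine synthetase, which Wnt signalling keeps on around the central vein, stood at 32173, 52578, 41599 and 30530 in the livers and 7235 to 14653 with a median of 13570 in tumors. DEN T-WD 5 was lowest, and the fall was -1.66 ± 0.16 (edgeR adjusted p = 5.52e-08). *Lgr5*, a receptor of R-spondin, and *Axin2*, both Wnt targets, changed by -1.98 ± 0.20 and -1.08 ± 0.22 (edgeR adjusted p = 5.6e-08 and 0.000326). *Wnt2* and *Wnt9b*, ligands that endothelium of the central vein makes, changed by -1.16 ± 0.23 and -1.24 ± 0.23 (edgeR adjusted p = 0.000223 and 0.000153). The transcription factor *Tbx3*, another Wnt target, changed by -1.61 ± 0.21 (edgeR adjusted p = 2.15e-06).

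Of 20 periportal and urea cycle genes, 9 were called lower, against 5.24% of all tested genes, and 2 higher, with a median of -0.86. *Cps1*, which starts the urea cycle, stood at 107344, 60382, 94967 and 104910 in the livers and 34354 to 53113 with a median of 41740 in tumors, without overlap, and fell by 1.13 ± 0.22 (edgeR adjusted p = 0.000218). *Otc*, the next enzyme, changed by -1.10 ± 0.11 and the ornithine carrier *Slc25a15* by -1.07 ± 0.15 (edgeR adjusted p = 5.38e-08 and 4.38e-06). *Ass1*, the enzyme after *Otc*, stood at 49469, 34466, 49134 and 34294 in the livers and 12134 to 32654 with a median of 16143 in tumors and fell by 1.22 ± 0.29, with DEN T-WD 5 the highest tumor and close to the lowest liver (edgeR adjusted p = 0.0016). Of 30 genes of amino acid breakdown, 12 were called lower, with a median of -0.95. *Hpd*, an enzyme of tyrosine breakdown, stood at 35915, 26765, 38251 and 34014 and 7945 to 13340 with a median of 10342, a change of -1.69 ± 0.19 (edgeR adjusted p = 3.77e-07). *Tat*, which precedes it, changed by -1.51 ± 0.30, and *Dmgdh* and *Gcdh*, mitochondrial dehydrogenases, by -1.67 ± 0.12 and -1.32 ± 0.09 (edgeR adjusted p = 0.000282, 1.53e-09 and 1.14e-09).

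Of 38 cytochromes P450, 16 were called lower and 8 higher, against 5.24% and 10.4% of all tested genes. Without nonDEN L-WD 1, 15 were lower and 5 higher, the latter near the 10.2% of all genes in that fit, and without nonDEN L-WD 4 also 5 were higher. *Cyp2e1*, which oxidizes ethanol and also activates DEN, stood at 211976, 202296, 254399 and 237373 in the livers and at 25316 at the lowest, 53895 at the median and 67191 at the highest in tumors. It fell by 2.14 ± 0.19 in all tumors (edgeR adjusted p = 1.33e-08). *Cyp2c29* stood at 33891, 26071, 41391 and 34206 and 3155 to 7872 with a median of 6029 in the same order and changed by -2.51 ± 0.27 (edgeR adjusted p = 1.43e-07), and *Cyp1a2* by -1.92 ± 0.20 (edgeR adjusted p = 8.16e-08). *Cyp1a1*, a target of the aryl hydrocarbon receptor, rested on a single tumor. It stood at 31.8, 47.7, 26.5 and 22.1 in the livers, 10.98 to 25.9 in 5 tumors and 1258 in DEN T-WD 5, and its change went from 2.81 ± 1.06 to -0.88 ± 0.27 without that tumor. *Nr1i3*, the receptor CAR that induces P450 genes, stood at 3847, 3717, 4737 and 4452 in the livers and 612 to 1564 with a median of 1156 in tumors and fell by 1.83 ± 0.25 (edgeR adjusted p = 3.59e-06), with 63.6% of its sequence shared with neighbouring *Tomm40l*.

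Bile acid genes were called lower in 12 of 24 members and higher in 2 (1 without DEN T-WD 5), with a median of -1.09. Of all tested genes 5.24% were called lower and 10.4% higher, so that the count called higher lies near that share. *Cyp7a1*, the rate-limiting enzyme of bile acid synthesis, stood at 12500, 5492, 8747 and 7359 in the livers and 2061 to 3768 with a median of 3519 in tumors and fell by 1.46 ± 0.32 (edgeR adjusted p = 0.000729). *Cyp8b1*, which directs synthesis to cholic acid, *Cyp27a1*, which oxidizes the side chain, and *Baat*, which conjugates bile acids, changed by -2.28 ± 0.23, -1.60 ± 0.11 and -1.21 ± 0.08 (edgeR adjusted p = 8.59e-08, 1.12e-09 and 8.37e-10). Uptake carriers were lower as well, and 11 of 22 hepatocyte solute carriers were called lower, against 5.24% of all tested genes. Without DEN T-WD 5, 12 solute carriers were called lower and 1 higher. *Slco1b2* stood at 48865, 56452, 56120 and 68372 in the livers and 13991 to 18105 with a median of 15465 in tumors, and *Slc10a1*, the sodium taurocholate carrier, at 14686, 11462, 15136 and 16026 and 2664 to 4422 with a median of 3493. Neither overlapped, and they changed by -1.85 ± 0.14 and -2.03 ± 0.17 (edgeR adjusted p = 1.53e-09 and 8.91e-09).

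Of 20 hepatocyte transcription factors, 5 were called lower, against 5.24% of all tested genes, with a median of -0.64. *Hnf4a*, the master regulator of hepatocytes, stood at 10454, 12214, 11397 and 15456 in the livers and 8183 to 13391 with a median of 12565 in tumors, and its change of -0.06 ± 0.12 did not pass the test (edgeR adjusted p = 0.71). *Onecut2* and *Cebpb* changed by -1.37 ± 0.16 and -1.13 ± 0.14 (edgeR adjusted p = 4.74e-07 and 1.2e-06).

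Of 30 plasma protein genes, 3 were called higher and 4 lower, with a median of -0.15. The share called higher is close to the 10.4% of all tested genes (5.24% of all were lower), and 2 were called lower without nonDEN L-WD 4. Those called higher with the highest TPM were transferrin and apolipoproteins. *Trf*, transferrin, stood at 243001, 234102, 282680 and 272023 in the livers, at 722735 to 872064 in 5 tumors and at 224826 in DEN T-WD 5. That tumor lay below the livers, and the rise was 1.43 ± 0.27 with it and 1.62 ± 0.18 without it (edgeR adjusted p = 0.000147 and 2.57e-07). In TPM *Trf* went from 8366 ± 677 to 29337 ± 9209 (SD). *Apoa1*, *Ahsg* and *Kng1* had the same order, with DEN T-WD 5 at 54574, 73796 and 36421 and the other tumors at 257951 to 319272, 261559 to 378520 and 108396 to 175620. *Apoa1* was just past the 2-fold threshold, at 1.01 ± 0.30, and short of it in 9 of 17 alternative fits, among them that without nonDEN L-WD 1, at 0.99 ± 0.34. *Alb* stood at 1652733, 1268616, 1936480 and 2231355 in the livers, 2513733 to 3317846 in those 5 tumors and 629854 in DEN T-WD 5, and was not called (edgeR adjusted p = 0.156). *Apoc2*, the cofactor of lipoprotein lipase, did not depend on that tumor, with 4931, 4842, 4787 and 4936 in the livers, 14619 to 27378 with a median of 18852 in tumors and a rise of 2.01 ± 0.24 (edgeR adjusted p = 7.71e-07), although 78.3% of its sequence is shared with readthrough models. *Lcn2*, lipocalin 2 of the acute phase, stood at 240.1, 413, 364 and 555 and 6285 to 14158 with a median of 7953, a rise of 4.59 ± 0.90 (edgeR adjusted p = 0.000233).

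Of 22 cholesterol synthesis genes, 12 were called higher, against 10.4% of all tested genes, with a median of 1.09. At the adjusted p alone 15 were higher and 2 lower, where 49.0% of all tested genes passed in either direction. *Sqle*, squalene epoxidase, stood at 202, 82.3, 128 and 209 in the livers and at 636 at the lowest, 2782 at the median and 3188 at the highest in tumors. All tumors were higher, DEN T-WD 5 least, and the rise was 3.96 ± 0.59 (edgeR adjusted p = 1.04e-05). *Mvk*, mevalonate kinase, rose by 1.39 ± 0.23 and *Idi1*, isopentenyl diphosphate isomerase, by 1.31 ± 0.23 (edgeR adjusted p = 3.4e-05 and 7.03e-05). Of the 12 genes, 9 matched a RefSeq promoter. CCAAT boxes, bound by NF-Y, a known partner of SREBP2, were in 8 of 9 (88.9%) against 37.9% of all promoters, and CHR letters in 0 of 9 against 19.4%. High shares of CCAAT were not particular to these genes, since 6 of 7 fatty acid oxidation genes called lower (85.7%) and 14 of 17 mitotic genes held it too. The promoters of 2 of them are shown with CCAAT or its reverse complement ATTGG in capitals.
Mvk, chr5:114444019-114444268, plus strand: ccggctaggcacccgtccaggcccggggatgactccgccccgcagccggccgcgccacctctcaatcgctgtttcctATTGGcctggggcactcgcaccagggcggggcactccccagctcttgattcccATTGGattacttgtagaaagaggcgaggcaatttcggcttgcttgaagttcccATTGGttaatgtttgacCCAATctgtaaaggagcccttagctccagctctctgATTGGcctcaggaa
Idi1, chr13:8885356-8885605, plus strand: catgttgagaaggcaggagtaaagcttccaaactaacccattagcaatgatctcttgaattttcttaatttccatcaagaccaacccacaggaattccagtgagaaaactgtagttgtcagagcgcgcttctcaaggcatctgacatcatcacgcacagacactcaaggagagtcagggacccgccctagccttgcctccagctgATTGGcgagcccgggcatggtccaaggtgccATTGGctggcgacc
*Mvk* holds 5 such boxes in these 250 bases and *Idi1* holds 2.

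Fatty acid genes moved both ways. *Scd2*, a stearoyl-CoA desaturase that adult liver uses little, stood at 323, 326, 294 and 206 in the livers and 3087 at the lowest, 7540 at the median and 8590 at the highest in tumors, a rise of 4.51 ± 0.54 without overlap (edgeR adjusted p = 6.65e-07). *Lpl*, lipoprotein lipase, rose by 1.93 ± 0.25 (edgeR adjusted p = 1.87e-06). Of 37 genes of fatty acid oxidation and ketogenesis, 10 were called lower and 2 higher, against 5.24% and 10.4% of all tested genes, with a median of -0.78. *Mgll*, which hydrolyses monoacylglycerol, changed by -1.52 ± 0.20, and *Cidea*, a lipid droplet protein that the fatty liver is known to induce, by -2.84 ± 0.69 (edgeR adjusted p = 2.38e-06 and 0.00163). *Cidea* stood at 1103, 1033, 1867 and 747 in the livers, 88.9 to 371 in 5 tumors and 2.19 in DEN T-WD 5.

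Of 24 genes of serine, glycine and one-carbon metabolism, 6 were called higher and 5 lower, against 10.4% and 5.24% of all tested genes, with a median of -0.32. *Psat1*, phosphoserine aminotransferase, stood at 39.5, 52.4, 18.3 and 42.1 in the livers, 846 to 979 in 5 tumors and 164 in DEN T-WD 5, with a rise of 4.34 ± 0.69 (edgeR adjusted p = 2.25e-05). *Phgdh*, which starts the pathway, stood at 18.3, 13.1, 13.2 and 16.9, 138 to 321 and 21.1 in the same order, with a rise of 3.76 ± 0.65 (edgeR adjusted p = 6.05e-05). *Mthfd1l* and *Aldh1l2*, mitochondrial enzymes of folate, rose by 2.79 ± 0.31 and 3.36 ± 0.58 (edgeR adjusted p = 2.38e-07 and 5.27e-05). *Bhmt*, *Cbs* and *Pemt*, enzymes of methionine and methyl group metabolism, changed by -2.0 ± 0.25, -1.36 ± 0.15 and -1.25 ± 0.11 (edgeR adjusted p = 1.5e-06, 2.96e-07 and 9.11e-09). Asparagine synthetase *Asns* and *Trib3*, targets of the integrated stress response, rose by 3.12 ± 0.52 and 3.16 ± 0.39 (edgeR adjusted p = 4.23e-05 and 1.06e-06), and 4 of 18 genes of that list were called higher, against 10.4% of all tested genes.

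Of 29 glycolysis genes, 2 were called higher and 2 lower, near the 10.4% and 5.24% of all tested genes, while 7 were higher and 11 lower at the adjusted p alone. Without DEN T-WD 5, 1 was called higher, without nonDEN L-WD 1, 1 was called lower, and without nonDEN L-WD 4, 4 were called lower. *Pkm* and *Pfkp*, isoforms of tissues other than liver, were highest in DEN T-WD 5, and neither was called without it (log2 fold change 0.83 ± 0.17 and 0.96 ± 0.21). *Ldha* was not called, with -0.69 ± 0.20 (edgeR adjusted p = 0.00568). *G6pc* and *Pck1*, enzymes of gluconeogenesis, changed by -1.53 ± 0.31 and -1.27 ± 0.21 (edgeR adjusted p = 0.000279 and 3.66e-05). Of 26 nuclear genes of the respiratory chain, edgeR called 0 at the 2-fold threshold and DESeq2's Wald test also called 0. All 26 had negative values, from -0.79 to -0.27 with a median of -0.50, and 26 had an unadjusted p under 0.05. *Sdha*, a subunit of succinate dehydrogenase, stood at 13514, 13474, 13480 and 12706 and 6824 to 9039 with a median of 7487 without overlap, a change of -0.79 ± 0.09 (edgeR adjusted p = 5.7e-07). *mt-Co3* of the mitochondrial genome fell by 1.47 ± 0.18 (edgeR adjusted p = 1.21e-06), and its sequence is fully shared with *Gm28437*, which was called higher, so that the division of reads between the pair is uncertain.

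Glutathione and NRF2 genes were called higher in 12 of 36 members and lower in 1, against 10.4% and 5.24% of all tested genes. Without DEN T-WD 5, 10 were called higher (9.50% of all tested genes were) and 3 lower, and the median moved from 0.84 to 0.09. *Slc7a11*, the cystine importer that feeds glutathione synthesis, stood at 8.68, 9.35, 11.2 and 2.11 in the livers, 191 to 604 in 5 tumors and 17311 in DEN T-WD 5. The rise was 8.66 ± 1.65 with this tumor and 5.77 ± 0.94 without it (edgeR adjusted p = 0.000167 and 2.61e-05). *Cbr3*, *Nqo1* and *Gsta1*, detoxifying enzymes that NRF2 is known to induce, stood at 5945, 3274 and 36809 in that tumor and at 181 to 727, 433 to 773 and 828 to 2000 in the others. Without it the changes of *Cbr3* and *Nqo1* were 3.80 ± 0.57 and 1.16 ± 0.19, and that of *Gsta1* was 1.21 ± 0.55 and no longer called (edgeR adjusted p = 1.04e-05, 3.61e-05 and 0.0692). *Ggt1*, which cleaves glutathione outside the cell, joined both unusual libraries. It stood at 648, 0.935, 3.06 and 9.48 in the livers and 1.84 to 21.7 in 5 tumors, but at 1920 in DEN T-WD 5. Its log2 fold change was 0.99 ± 1.5 with all libraries, -4.05 ± 1.36 without that tumor and 6.20 ± 2.23 without nonDEN L-WD 1 (edgeR adjusted p = 0.607, 0.0168 and 0.0282).

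Immediate early genes were called higher in 8 of 17 members, with a median of 1.14. *Egr1* stood at 258, 292, 369 and 165 in the livers, 1894 to 2695 in 5 tumors and 378 in DEN T-WD 5, and rose by 2.85 ± 0.47 (edgeR adjusted p = 3.09e-05). Interferon-stimulated genes were called higher in 7 of 22 members, against 10.4% of all tested genes, or in 4 without nonDEN L-WD 1, against 10.2%. *Ifi44* stood at 127, 96.3, 99.9 and 198 and 413 to 722 with a median of 499 and rose by 2.05 ± 0.33 (edgeR adjusted p = 2.19e-05).

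**Figure D5:**
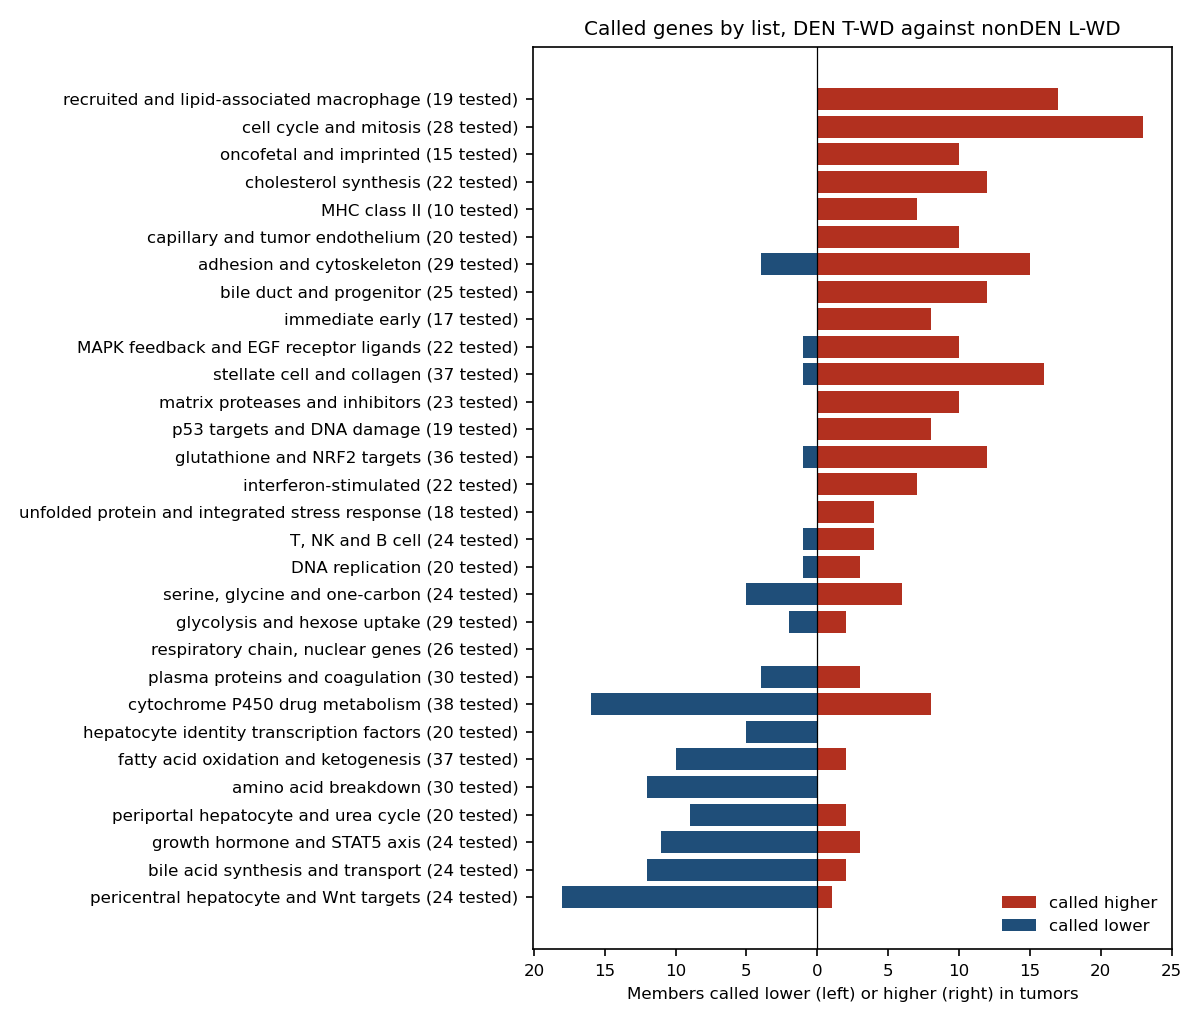
Number of tested members called higher (red, to the right) and lower (blue, to the left) in tumors for 30 of the gene lists, with the number tested beside each name. Recruited macrophage, mitosis and cholesterol synthesis genes extend to the right, and pericentral, bile acid and amino acid breakdown genes to the left.

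Recruited and lipid-associated macrophage genes were called higher in 17 of 19 members, against 10.4% of all tested genes, with a median of 1.81. Of 16 resident Kupffer cell genes, 3 were called lower, against 5.24% of all tested genes, with a median of 0.05. Of these 16 genes, 8 had positive and 8 negative changes, from -2.35 to 1.06. An edgeR unadjusted p under 0.05 was reached by 4 of the positive and 5 of the negative. The Kupffer cell genes named below are all among the negative. The difference between the lists was not tested, and 5 summed Kupffer cell markers overlapped between the groups, at 5403 to 6872 in the livers and 3786 to 6665 in tumors. *Spp1*, osteopontin, stood at 1645, 1178, 1122 and 1133 in the livers and at 7909 at the lowest, 15007 at the median and 17581 at the highest in tumors, a rise of 3.43 ± 0.38 without overlap (edgeR adjusted p = 2.19e-07). This gene is also made by bile duct cells and was counted in that list too. *Cd9* and *Cd63*, tetraspanins, rose by 1.81 ± 0.16 and 3.29 ± 0.38 (edgeR adjusted p = 2.13e-08 and 4.04e-07). *Itgax*, integrin CD11c, stood at 36.6, 86.0, 97.8 and 31.6 and 115 to 320.0 with a median of 248 and rose by 1.86 ± 0.30, and *Trem2*, a lipid receptor of these cells, by 1.45 ± 0.35 (edgeR adjusted p = 2.31e-05 and 0.00168). *Timd4* and *Marco*, receptors of resident Kupffer cells, stood at 194, 234, 156 and 163 and 230.5, 628, 216 and 229 in the livers and at 25.5 to 84.5 with a median of 56.7 and 42.5 to 131 with a median of 67.5 in tumors. They changed by -1.76 ± 0.32 and -2.06 ± 0.59 (edgeR adjusted p = 9.04e-05 and 0.00568). *Clec4f*, a lectin of Kupffer cells, was not called, with 1861, 1939, 1816 and 1922 and 882 to 1521 with a median of 1236, and *Cd163*, a haemoglobin scavenger receptor, fell by 2.35 ± 0.51 (edgeR adjusted p = 0.000576).

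Lymphocyte genes were low throughout, with 4 of 24 members called higher and 1 lower, against 10.4% and 5.24% of all tested genes. Without nonDEN L-WD 1, 2 were called higher, near the 10.2% of all genes in that fit, and the member called lower lost its call. The count higher was 2 also without nonDEN L-WD 2, nonDEN L-WD 4 or DEN T-WD 2. None of the T cell markers *Cd3d*, *Cd3e*, *Cd3g* and *Trac* or the B cell markers *Cd79a*, *Cd79b* and *Ms4a1* was called, and their summed counts overlapped between groups, at 31.8 to 94.8 and 43.4 to 135.0 for T cells. MHC class II genes were called higher by edgeR in 7 of 10 members with all tumors, against 10.4% of all tested genes, and in 4 without nonDEN L-WD 4. Without DEN T-WD 5 edgeR called 0 of them higher, against 9.50% of all genes, and 9 were higher at an unadjusted p under 0.05. *H2-Aa* stood at 1120, 1197, 1467 and 889 in the livers, 1756 to 2471 in 5 tumors and 4683 in DEN T-WD 5, and its change was 1.18 ± 0.26 with it and 0.93 ± 0.23 without (edgeR adjusted p = 0.000791 and 0.00149). Neutrophil genes were called higher by edgeR in 4 of 8 members, against 10.4% of all tested genes. Without DEN T-WD 5 edgeR called 0 of the 7 members then tested, with 1 higher at an unadjusted p under 0.05, and without nonDEN L-WD 1 it called 0 of 8, with 4 higher at that level. Leaving out DEN T-WD 6 or any one of the other nonDEN L-WD livers in turn also left 1 call or none.

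Chemokine genes were called higher in 8 of 22 members, against 10.4% of all tested genes, with a median of 0.86, or in 4 without nonDEN L-WD 4. *Ccl9*, which attracts monocytes, stood at 750.3, 731, 962 and 748 in the livers and 2363 to 3218 with a median of 2671 in tumors, without overlap, and rose by 1.77 ± 0.17 (edgeR adjusted p = 3.19e-08). *Cxcl1*, which attracts neutrophils, stood at 168, 78.6, 163 and 295, at 706 to 899.8 in 5 tumors and at 262 in DEN T-WD 5, within the range of the livers, and rose by 2.02 ± 0.58 (edgeR adjusted p = 0.00586). *Ccl2*, the main ligand that draws monocytes through CCR2, rose by 1.53 ± 0.44 (edgeR adjusted p = 0.00604). Matrix proteases and their inhibitors were called higher in 10 of 23 members, with a median of 0.90. *Mmp12*, the elastase of macrophages, stood at 92.6, 338, 265 and 49.5 in the livers and 563 to 1173 with a median of 936 in tumors, and *Mmp13*, a collagenase, at 27.0, 37.4, 34.6 and 10.5 and 134 to 408 with a median of 199.8. Neither overlapped, and they rose by 2.28 ± 0.43 and 3.03 ± 0.46 (edgeR adjusted p = 0.000155 and 1.18e-05). *Plat*, the tissue plasminogen activator, stood at 62.7, 41.1, 25.5 and 33.7 in the livers and 117 to 226 with a median of 174 in tumors and rose by 2.11 ± 0.25 (edgeR adjusted p = 7.28e-07).

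Capillary and angiogenic endothelial genes were called higher in 10 of 20 members, against 10.4% of all tested genes. Of 19 sinusoidal endothelial genes, 1 was called higher and 2 lower, near the shares of all genes, and the difference between the lists was not tested. *Esm1*, endocan of tip cells, stood at 49.2, 45.8, 35.7 and 31.6 in the livers and at 518 at the lowest, 706 at the median and 1017 at the highest in tumors. The gap between the groups was wide, with a rise of 4.14 ± 0.31 (edgeR adjusted p = 2.35e-09). *Cd34*, a sialomucin of capillaries, *Angpt2*, a ligand that loosens vessels, and *Apln*, apelin, rose by 2.19 ± 0.23, 2.18 ± 0.27 and 5.21 ± 0.75 (edgeR adjusted p = 1.12e-07, 9.08e-07 and 6.51e-06). The sinusoidal scavenger receptor *Stab2* was not called, with 1670, 1809, 2034 and 1586 in the livers and 1241 to 1941 with a median of 1746 in tumors (edgeR adjusted p = 0.669). *Lyve1*, the hyaluronan receptor, was the sinusoidal gene that rose, by 1.17 ± 0.16 (edgeR adjusted p = 3.31e-06).

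Collagen and stellate cell genes were called higher in 16 of 37 members and lower in 1, against 10.4% and 5.24% of all tested genes. *Col4a1* and *Col4a2*, the chains of basement membrane collagen, stood at 1200, 1447, 1288 and 787 and 749, 860.4, 802 and 556 in the livers. In tumors they stood at 2946 to 4925 with a median of 3590 and 1912 to 2824 with a median of 2264, and they rose by 1.68 ± 0.19 and 1.64 ± 0.15 (edgeR adjusted p = 2.67e-07 and 2.49e-08). *Col1a1*, the fibrillar collagen of scars, rose by 1.81 ± 0.29 (edgeR adjusted p = 2.09e-05). The stellate cell markers *Lrat*, *Reln* and *Des* were not called, and *Tgfb2*, a ligand of TGF-beta receptors, rose by 2.58 ± 0.29 (edgeR adjusted p = 3.05e-07). Adhesion and cytoskeletal genes were called higher in 15 of 29 and lower in 4, against the same shares of all tested genes. *Itga6*, an integrin that binds laminin, stood at 158, 91.7, 78.5 and 93.7 and 795 to 1035 with a median of 849 and rose by 3.04 ± 0.27 (edgeR adjusted p = 1.48e-08).

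Of 25 bile duct and progenitor genes, 12 were called higher, against 10.4% of all tested genes, yet the defining duct keratins were not among them. Without DEN T-WD 5, 12 were called higher and 1 lower. *Krt19* stood at 40.5, 44.9, 43.8 and 185 in the livers and 13.7 to 62.8 with a median of 32.8 in tumors with overlap (edgeR adjusted p = 0.0897), and *Krt7* was not called either. *Sox9*, a transcription factor of ducts and of injured hepatocytes, stood at 70.4, 53.3, 73.4 and 53.7 and at 167 at the lowest, 269 at the median and 365 at the highest. It rose by 2.11 ± 0.29 (edgeR adjusted p = 3.89e-06), and its relative *Sox4* by 2.69 ± 0.27 (edgeR adjusted p = 7.95e-08). *Tspan8*, a tetraspanin of carcinomas, and *Prom1*, CD133, stood at 2228 to 5192 and 636 to 1142 in 5 tumors and at 468 and 154 in DEN T-WD 5, above 43.8 to 109.5 and 37.7 to 72.3 in the livers. The rises were 5.56 ± 0.80 and 3.77 ± 0.58 (edgeR adjusted p = 6.71e-06 and 1.4e-05).

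Markers of pancreas and fat varied between libraries of both groups. Pancreatic acinar markers summed to 483 to 18469 in the livers and 337 to 16612 in tumors, with DEN T-WD 6 the highest tumor. *Prss2*, trypsinogen, stood at 2250, 53.3, 317 and 4257 in the livers and 1.14 to 2920 with a median of 4.14 in tumors and was not called (edgeR adjusted p = 0.474). Of 22 pancreas genes 1, *Spink1*, was called higher, against 10.4% of all tested genes. Without DEN T-WD 6, 4 pancreas genes were called lower. Adipocyte markers summed to 23.2 to 128.3 in the livers and 0 to 104.3 in tumors. Erythroid markers summed to 12409 to 14684 in the livers and 15456 to 45496 in tumors, so that every tumor was above every liver, with DEN T-WD 3 the highest. *Alas2*, one of these markers, which makes haem in red cell precursors, fell by 1.26 ± 0.12 (edgeR adjusted p = 5.5e-08). Their part in other results was not tested.

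Peritumoral liver of DEN-injected mice on the western diet (DEN PT-WD, n = 8) gives another reference, and the comparisons below share samples with the one above. The labels do not say which tumor and peritumoral samples share a mouse, and the test takes all samples as independent. Between tumor and peritumoral liver 1235 genes were called (7.90%), with 752 higher and 483 lower in tumors, and between peritumoral and untreated liver 432 (2.76%), with 368 higher and 64 lower. *Afp* stood at 91.6 to 1687 with a median of 504 in peritumoral liver, with 1.65 ± 0.45 for tumor against peritumoral and 5.05 ± 0.76 for peritumoral against untreated liver (edgeR adjusted p = 0.0057 and 0.000721). *Spp1* stood at 1484 to 7579 with a median of 3584, with 1.97 ± 0.27 and 1.46 ± 0.33 (edgeR adjusted p = 8.86e-06 and 0.00777). *Oat* stood at 12833 to 23473 with a median of 17361, with -1.82 ± 0.16 and -0.93 ± 0.16 (edgeR adjusted p = 3.88e-08 and 0.00171). *Cyp2e1* stood at 119149 to 210424 with a median of 157815, with -1.67 ± 0.17 and -0.47 ± 0.18 (edgeR adjusted p = 1.8e-07 and 0.0777). By list, mitotic genes had 10 of 28 called higher in tumor over peritumoral liver, against 4.81% of all genes, and 4 in peritumoral over untreated liver, against 2.36%. Recruited macrophage genes had 4 and 11 of 19, and cholesterol synthesis genes had 6 and 1 of 22 called higher. Pericentral genes had 12 of 24 called lower in tumor against peritumoral liver, against 3.09% of all genes. In peritumoral against untreated liver, edgeR and DESeq2 each called 0 of the 24 lower, against 0.410% of all genes, and 13 were lower at an unadjusted p under 0.05.

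Across chromosomes, the median log2 difference of each tumor from the mean of nonDEN L-WD lay between -0.10 and 0.15 for every chromosome in the tumors other than DEN T-WD 5. In that tumor the median was -0.21 over 689 genes of chromosome 4 and -0.17 over 601 genes of chromosome 9, where the other 5 tumors lay at -0.06 to -0.02 and -0.03 to 0.00. On the X chromosome the 6 medians were 0.03 to 0.15 over 315 genes.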

How the data were processed

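RNA was sequenced from 25 liver and tumor samples in 5 groups, taken from the labels. The authors checked reads with FastQC, aligned them to GRCm38 with STAR and quantified genes with RSEM, and they deposited expected counts and TPM per sample, with the reads of similar genes divided between them. Which releases of STAR, RSEM and the annotation were used, and with what strand setting, is not given in the sources used here, so a gene and an overlapping antisense gene may share reads.

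Expected counts were rounded and tested with edgeR 4.0.16 (quasi-likelihood, TMM, R 4.3.3) in 1 fit of all 25 samples by group. Genes passed filterByExpr with a minimum count of 10, and p-values were adjusted (Benjamini-Hochberg) over all 15625 genes. Genes with an adjusted p of 0.05 or less and a log2 fold change of 1 or more in either direction were called. The SE is the log2 fold change divided by the square root of its F statistic. TPM was used for levels between genes and not tested. Tables and figures were made with Python 3.11.15, pandas 2.3.3, NumPy 2.4.6, SciPy 1.17.1 and Matplotlib 3.10.9.

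Floors cover counting error only and were set at 3 counts in a library, the limit that a count of 0 allows. Shared sequence is the percentage of a gene's 50-base words that other genes also hold. No 2 replicates were alike within sampling noise (smallest chi-square per gene 29.08). The test was checked on simulated data.

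Members and gene lists were chosen with earlier results of these data known. Named were the 12 largest rises and falls among called genes with 100 normalized counts or more and no overlap, leaving out predicted gene models, up to 4 called members of each of 45 lists by adjusted p with the defining markers, the 6 called genes of widest range among tumors, and the 6 higher and 6 lower of highest TPM. The promoters, the kidney genes and other named genes were chosen after their values were seen, and some genes that the rule picks are not reported here. Alternatives were DESeq2 1.42.0 with and without apeglm 1.24.0 shrinkage, DESeq2 size factors, upper quartile factors, no filter, the 2 groups alone, a replicate block, no fold threshold and each of the 10 libraries left out.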

Additional observations from a re-analysis of the deposited data

Results flagged for a closer look

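Among the genes and shares given above, 368 sets of values (each item in nonDEN L-WD and in DEN T-WD) were searched for a library far from the rest of its group, and 60 held one. For normally distributed values, chance alone gives a far library in about 1 set in 20. The search used untransformed counts, which need not be normal, and some genes were named because a library stood apart. For both reasons the count of 60 is no test against that rate. The values below are normalized counts unless a percentage is given, and no cause was tested.

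DEN T-WD 5 was the library set apart in 30 of the 60 sets. It was the highest tumor for 21 items. Among genes of glutathione and NRF2 these were *Slc7a11* (17311), *Cbr3* (5945), *Nqo1* (3274), *Gsta1* (36809) and *Ggt1* (1920). Among metabolic genes they were *Otc* (8015), *Ass1* (32654), *Bhmt* (43826), *Pkm* (2447), *Lpl* (8229), *Elovl7* (2625), *Plpp2* (870.5), *Slc39a4* (4021) and *Cyp1a1* (1258), and the rest were *Tekt5* (767.7), *Igf2bp3* (60.51), *Mcm6* (530.0), *H2-Aa* (4683), *Ccl2* (188.8), *Mmp13* (408.3) and the share of mitochondrial transcripts (10.49%). It was the lowest tumor for 9 items. The plasma protein genes *Alb* (629854), *Apoa1* (54574) and *Trf* (224826) were among them, with albumin at 2.889% of all counts, and so were *Psat1* (164.0), *Egr1* (378.4), *Cd63* (1108), *Cxcl1* (262.5) and *Stab2* (1241).

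In nonDEN L-WD, replicate 1 was the highest liver for 7 genes, namely *Lrp2* (3291), *Egf* (1124), *Ggt1* (648.0), *Ldhb* (639.4), *Pfkp* (98.36), *Cyp2a4* (415.6) and *Spp1* (1645). It is the liver that held transcripts known from the kidney. Replicate 2 was the highest for *Marco* (628.5), *Cbr3* (54.25), *Tgfb2* (28.99) and *Tekt5* (0.9353) and the lowest for *Bhmt* (49996), *Slc25a15* (5290) and *Tat* (19671). Replicate 3 was the highest for *Mcm6* (200.7) and *Ccl9* (961.9). Replicate 4 was the highest for *Apob* (512438), *Mup22* (902512), *Krt19* (185.4), *Krt20* (45.29) and *Cacna1b* (1.053) and the lowest for *Nqo1* (172.7) and *Sdha* (12706).

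Of the other tumors, DEN T-WD 1 was the highest for *Krt7* (66.20) and *Sox4* (1081), DEN T-WD 3 for *Alas2* (1631), DEN T-WD 4 for *Apln* (404.2) and *Itga6* (1035), and DEN T-WD 6 for *Prss2* (2920) and the share of pancreas genes (0.1963%).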

How the results depend on the processing

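Of 179 genes named with a test, 157 were called in tumor against untreated liver, and 145 of these kept their direction and their call under every alternative that kept the fold threshold and gave an adjusted p, 17 in number, or 15 for *Slc7a11*, *Tekt5*, *Lrp2* and *Elovl7*, to which DESeq2 gave none. The other 12 (*Apoa1*, *Axin2*, *Cyp1a1*, *Cyp2b10*, *Egf*, *Fabp1*, *Gsta1*, *H2-Aa*, *Ldhb*, *Pfkp*, *Pkm* and *Plin5*) lost the call at least once, most often without DEN T-WD 5 (6 genes, besides *Cyp1a1*, whose sign turned) or without nonDEN L-WD 1 (5 genes). Of the 22 genes not called, *Krt7*, *Ggt1* and *Gm42418* were called at least once. The sign turned for *Cyp1a1*, to -0.88 without DEN T-WD 5 and -0.53 with the replicate number as a block, and for *Ggt1*, to -4.05 without DEN T-WD 5. Leaving out 1 library at a time, *Cyp1a1* ranged from -0.88 to 3.07 and *Ggt1* from -4.05 to 6.20. The cause of the change under the block was not tested. The count of 2447 called genes, of which 66.6% were higher, became 7656 with 52.8% higher (4042 higher and 3614 lower) when no minimum fold change was asked. Leaving out 1 library at a time gave 2228 to 2541 calls, and the other alternatives gave 2166 (only the 2 groups fitted) to 2717 (no filter on low counts), with 2582 by DESeq2's Wald test. Of 90 counts of list members, 9 moved by over 1.5 times with apeglm shrinkage, without DEN T-WD 5 or without nonDEN L-WD 4, 8 without nonDEN L-WD 1, and 7 or fewer under the others. Those that moved without nonDEN L-WD 4 were of chemokine, P450, MHC class II, plasma protein, acute phase, glycolysis, lymphocyte, neutrophil and hepatocyte genes.

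Equal replicate numbers cannot mark the same mouse in tumors and untreated livers, which came from injected and uninjected mice. The deviations of these 4 pairs from their group means correlated at -0.43 to 0.16. With the number as a block, 2374 genes were called, and 3 of the 157 genes (*Gsta1*, *Pfkp* and *Pkm*) lost the call while keeping their direction. No tumor deviated most like the untreated liver with its own number. Correlations were -0.38 to 0.52 for 6 pairs of tumor and peritumoral liver and -0.43 to 0.30 for 4 pairs of peritumoral and untreated liver, where replicate 1 alone matched its own number best. Between tumor and peritumoral liver the block gave 1133 calls against 1235 and DESeq2 1310, and between peritumoral and untreated liver 334 against 432 and DESeq2 520.

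The untreated group has 4 livers, 1 of them with kidney transcripts, and 1 of 6 tumors stands apart. Genes that share sequence with relatives, such as the *Mup* family, are uncertain one by one. Depth limits the genes that liver hardly transcribes, since *Cyp2b13*, *Sult2a2* and *Csn3* lie at or under the floor of 3 counts in every nonDEN L-WD library, and their folds are lower bounds.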

Other observations

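Counts of called members in other gene groups are given here beside 10.4% of all tested genes called higher and 5.24% called lower, and several lie close to these shares. Of 33 genes of acylglycerol synthesis and lipid droplets, 5 were called higher and 6 lower in tumors, with a median log2 fold change of -0.51. *Plpp2*, a phosphatase of lipid phosphates, rose by 1.20 ± 0.11 and *Lpin3*, a phosphatidate phosphatase, by 1.46 ± 0.20, while *Plin5*, a coat protein of lipid droplets in oxidative tissues, stood at 611, 666, 766 and 794 in the livers and 242 to 424 with a median of 344 in tumors, with a log2 fold change of -1.04 ± 0.16 (edgeR adjusted p = 1.83e-08, 3.36e-06 and 1.28e-05). Of 29 genes of fatty acid uptake and lipoproteins, 6 were called higher and 5 lower. *Lipc*, hepatic lipase, and *Slc27a5*, a bile acid and fatty acyl-CoA synthetase, changed by -1.39 ± 0.11 and -1.37 ± 0.11 without overlap between the groups (edgeR adjusted p = 5.22e-09 and 8.75e-09). *Fabp1*, the fatty acid binding protein of liver, stood at 98306, 123986, 113458 and 112118 in the livers and 20009 to 78889 with a median of 49477 in tumors, and its change of -1.16 ± 0.26 was short of 2-fold without DEN T-WD 5 (edgeR adjusted p = 0.000718). Of 23 genes of fatty acid synthesis and desaturation, 4 were called higher and 3 lower. *Pnpla3*, a lipase of lipid droplets, stood at 28.0, 54.2, 9.17 and 7.37 in the livers, 166 to 428 in 5 tumors and 10.9 in DEN T-WD 5, and *Elovl7*, an elongase, at 78.1, 23.4, 18.3 and 10.5, 222 to 312 and 2625 in the same order.

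Metal genes were called in 5 of 16 members, 3 higher and 2 lower. *Slc39a4*, a zinc importer, stood at 291, 422, 240.5 and 194 in the livers and 1372 to 4021 with a median of 2105 in tumors and rose by 3.00 ± 0.36 without overlap (edgeR adjusted p = 7.23e-07). *Slc30a10*, a manganese exporter, changed by -1.38 ± 0.20, and *Hamp*, the iron hormone hepcidin, by -1.19 ± 0.32, with 8191, 6639, 9464 and 11741 in the livers and 2205 to 6163 with a median of 4043 in tumors (edgeR adjusted p = 7.66e-06 and 0.00388). Of 16 acute phase genes, 3 were called higher, or 5 without nonDEN L-WD 4, and *Cp*, ceruloplasmin, stood at 36797, 36516, 39352 and 45565 in the livers, 88290 to 117998 in 5 tumors and 43573 in DEN T-WD 5, a rise of 1.32 ± 0.22 (edgeR adjusted p = 4.31e-05). *Pck2*, the mitochondrial phosphoenolpyruvate carboxykinase, rose by 1.92 ± 0.22 (edgeR adjusted p = 3.95e-07) and was the only one of 18 genes of gluconeogenesis and glycogen called higher, against 2 called lower. Of 18 clock genes, *Npas2*, a partner of BMAL1, was the only one called, at 3.86, 1.87, 7.13 and 4.21 in the livers and 6.41 to 29.1 with a median of 17.2 in tumors. Of 20 genes of fat, muscle, red cells and gut, 3 were called higher and 4 lower (2 lower without DEN T-WD 5 and 9 without DEN T-WD 3). Of 12 hepatocyte genes 1 was called higher and 4 lower, and 2 were higher without DEN T-WD 5 or nonDEN L-WD 4. The hepatocyte gene called higher, *Apoa1*, lost its call without nonDEN L-WD 1 or 2 or without DEN T-WD 2, 3, 4 or 6. *Krt20*, a keratin of gut epithelium, stood at 0.964, 0, 0 and 45.3 in the livers and 46.7 to 503 with a median of 212 in tumors.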
